A study of Mus musculus with 2 samples.

Results

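Fcgr1, Fcgr3, Fcgr4, Fcgr2b, Fcer1g and Fcgrt, the mouse receptors for the Fc part of IgG together with the signaling chain that the activating ones share, were followed in single CD45+ cells of Lewis lung carcinoma (LLC) tumors. They were chosen by name, and all 6 were found once each among the 27998 genes of the count table. The 6 genes gave 189774 UMIs (unique molecular identifiers, each a counted RNA molecule) in the library labelled wt and 206492 in the library labelled cko, which was 0.775% and 0.760% of all UMIs.

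Fc gamma receptors let immune cells read antibody that has coated a target. Fcgr1 binds monomeric IgG with high affinity, whereas Fcgr3 and Fcgr4 bind immune complexes with lower affinity. All 3 are activating and reach the cell surface and signal through the common gamma chain, encoded by Fcer1g, whose ITAM recruits the kinase Syk. Fcgr2b, with an ITIM in its own tail, recruits the phosphatase SHIP-1 and sets a threshold for the activating receptors. Macrophages use these receptors for phagocytosis of antibody-coated cells, and NK cells carry Fcgr3 for antibody-dependent killing. Fcgrt encodes FcRn, a receptor of endosomes that spares IgG and albumin from degradation. Fcgr1 is a well known target of interferon-gamma, and Fcgr4 marks mouse nonclassical monocytes.

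The cells were sorted from subcutaneous LLC tumors, a lung carcinoma line of C57BL/6 origin, grown in C57BL/6 mice with a labelled age of 10 weeks. In both groups implantation was at 8 weeks of age and the cells came from day 14 after it. Both groups carried loxP-flanked miR-21 alleles (miR-21fl/fl), and the other group carried in addition LysMCre, a Cre recombinase driven from the Lyz2 locus and active in macrophages, monocytes and granulocytes but not as a rule in T or NK cells. Tumors of 3 mice were pooled per genotype into 1 droplet library with 3′ counting, so each group was 1 library, and nothing measured the spread between mice. The titles name the libraries wt and cko, and the source description of the same samples gives the reverse, so the names "labelled wt" and "labelled cko" follow the titles, and every direction between libraries rests on them. Lyz2 was lower in the library labelled cko in 9 of 9 myeloid gates (log2 ratio from -1.18 to -0.78), for example 13890 against 26390 CPM (UMIs of a gene per 1000000 UMIs of the gate) in interferon-low classical monocytes. One protocol field names a gate for CD11b+ MHCII+ F4/80+ macrophages where the design names CD45+ cells, and lymphocytes were present in both libraries.

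There were 2449 cells labelled wt and 2718 labelled cko, at median depths of 8359 and 8247 UMIs. The libraries shared 5 cell barcodes. Cells were sorted into 17 gates by UMIs of marker genes, none of them a member of the receptor set, and of the 2445 and 2704 cells kept after filtering the gates took in 2272 (92.9%) and 2533 (93.7%). Gate names stand for these markers alone. Levels are given as CPM, and since a UMI at the 3′ end counts a molecule whatever the length of the RNA, levels were set side by side between genes without a length correction. Every interval is an exact 95% interval that covers counting error only, and with 1 library per group no test and no p-value was possible. The gates were cut from continuous marker levels. Of the classical monocytes, 12.2% and 11.4% lay within 1.5-fold of the interferon threshold, and of the C1q macrophages 20.8% and 17.2% lay that near the Cd300e threshold (labelled wt and labelled cko). Free RNA, read from C1q transcripts in T cells, amounted to an estimated 3.18% and 3.36% of UMIs.

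In GRCm38 coordinates (GENCODE vM21 annotation), 4 of the 6 genes lie close together on chromosome 1. These are Fcgr2b (ENSMUSG00000026656, chr1:170958617-170976547, minus strand), Fcgr4 (ENSMUSG00000059089, chr1:171018920-171029761, plus strand), Fcgr3 (ENSMUSG00000059498, chr1:171051174-171064935, minus strand) and Fcer1g (ENSMUSG00000058715, chr1:171229572-171234365, minus strand). Fcgr1 (ENSMUSG00000015947) lies at chr3:96282909-96293969 and Fcgrt (ENSMUSG00000003420) at chr7:45092990-45103851, both on the minus strand. Of 60-base words taken from the last 600 bases of their transcripts, 7 of 220 words of Fcgr2b (3.18%) also occurred in Fcgr3, and the other members shared none. An antisense gene, Gm38204, overlaps Fcgr2b, and another, Gm45669, overlaps Fcgrt near its 3′ end. How the counting treated strand is not given in the sources used here.

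The promoters of the activating receptors and of Fcgr2b are printed here (RefSeq, GRCm38.p6, 250 bases before to 50 bases after the annotated start, 5′ to 3′ on the strand of the gene), because in classical monocytes Fcgr1 and Fcgr4 climbed with interferon-induced genes and Fcgr3 and Fcgr2b did so less, as described below. Capitals mark matches on either strand to TTCNNNGAA (a gamma-activated sequence), GAAANNGAA (the core of an interferon-stimulated response element) and GAGGAA (a PU.1 core, here always read as TTCCTC). The windows are chr3:96293920-96294219 for Fcgr1, chr1:171018676-171018975 for Fcgr4, chr1:171059345-171059644 for the first of 2 annotated Fcgr3 windows, and chr1:170976022-170976321 for Fcgr2b. Those of Fcgr3 and Fcgr2b lie inside the gene spans given above, so neither reaches the outermost annotated 5′ end.
Fcgr1: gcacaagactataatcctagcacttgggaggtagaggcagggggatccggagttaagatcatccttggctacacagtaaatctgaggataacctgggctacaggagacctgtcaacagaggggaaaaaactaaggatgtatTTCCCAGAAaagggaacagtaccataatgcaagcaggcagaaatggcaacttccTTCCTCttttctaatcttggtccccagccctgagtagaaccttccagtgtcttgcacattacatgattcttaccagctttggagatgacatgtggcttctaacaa
Fcgr4: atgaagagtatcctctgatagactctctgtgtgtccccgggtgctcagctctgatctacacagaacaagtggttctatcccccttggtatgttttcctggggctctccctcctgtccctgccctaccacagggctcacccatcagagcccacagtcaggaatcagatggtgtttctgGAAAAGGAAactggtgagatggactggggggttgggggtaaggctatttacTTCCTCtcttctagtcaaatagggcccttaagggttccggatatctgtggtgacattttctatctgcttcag
Fcgr3: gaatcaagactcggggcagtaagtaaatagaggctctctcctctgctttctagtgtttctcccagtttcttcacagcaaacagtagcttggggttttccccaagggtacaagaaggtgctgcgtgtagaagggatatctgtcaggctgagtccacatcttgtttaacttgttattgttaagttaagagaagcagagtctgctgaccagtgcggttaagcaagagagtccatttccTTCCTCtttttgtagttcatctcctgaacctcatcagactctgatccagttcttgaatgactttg
Fcgr2b: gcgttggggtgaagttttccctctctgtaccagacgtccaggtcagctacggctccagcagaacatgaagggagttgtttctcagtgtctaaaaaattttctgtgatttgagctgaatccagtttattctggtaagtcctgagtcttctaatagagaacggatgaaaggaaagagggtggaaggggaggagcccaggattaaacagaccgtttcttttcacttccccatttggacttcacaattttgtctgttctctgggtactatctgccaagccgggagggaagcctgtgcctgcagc

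Fcgr1 held TTCCCAGAA 109 bases before its start and TTCCTC 55 bases before it. Fcgr4 held GAAAAGGAA 73 bases and TTCCTC 22 bases before its start. Fcgr3 held only TTCCTC, 15 bases before the start, and Fcgr2b none of the 3 motifs. The windows of Fcer1g (chr1:171234300-171234599) and Fcgrt (chr7:45103773-45104072) held none of them either. Of 32851 promoters of the same length, 8.3% held TTCNNNGAA, 8.6% GAAANNGAA and 28.3% GAGGAA, and the motifs can overlap. A match describes letters in the window and is not a measured site. Bases outside the windows were not searched, among them the outermost annotated 5′ ends of Fcgr3 and Fcgr2b.

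Among the activating receptors, Fcgr1 was the most uneven across myeloid states. It stood highest in both libraries in interferon-high classical monocytes, cells with Ly6c2 and at least 15 UMIs per 10000 from 8 interferon-induced genes such as Ifit1, Isg15 and Cxcl10, with 1075 CPM labelled wt and 1088 labelled cko. Interferon-low classical monocytes had 416 and 380.5 CPM, a log2 difference of 1.37 (1.27 to 1.47) within the library labelled wt and 1.52 (1.40 to 1.63) within that labelled cko. Cells with both Ly6c2 and C1q came next in both libraries, with 885 and 781 CPM. Nonclassical monocytes, gated by Ace, Treml4, Spn, Adgre4 and Eno3, had the lowest level of the monocyte and macrophage gates, 244 and 248 CPM.

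Within C1q macrophages, the Vcam1/Ccl8/Folr2 gate had 535 and 527 CPM, the Cd300e/Clec4b1/Pparg gate 490.2 and 397 CPM, and the other C1q macrophages 587 and 565 CPM. Between the Cd300e gate and other C1q macrophages the log2 difference was -0.26 (-0.39 to -0.13) labelled wt and -0.51 (-0.61 to -0.41) labelled cko. Against the Vcam1 gate it was -0.13 (-0.26 to 0.01) and -0.41 (-0.52 to -0.30), so the order was resolved in the library labelled cko. Monocytic cells low in both Ly6c2 and C1q held 491 and 483 CPM. Granulocytic cells, gated by S100a8, S100a9, Csf3r and others, held 203 and 322 CPM, and this gate also carried the monocyte gene Csf1r at 281 and 252 CPM, with median depths of 7466 and 4416 UMIs.

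The same held for Fcgr1 within cell classes, though not at every step. When classical monocytes were divided by their UMIs from the 8 interferon-induced genes (0 to 1, 1 to 5, 5 to 15, 15 to 40 and over 40 per 10000), Fcgr1 stood at 294, 369, 655, 844 and 1389 CPM in the library labelled wt. The library labelled cko had 299, 359, 589.6, 900.0 and 1308 CPM, so each step was upward in both. Each division held at least 55 cells, and median depth ran from 7501 to 8350 UMIs in those labelled wt. In C1q macrophages Fcgr1 went from 418 CPM in the lowest to 1309 CPM in the highest division labelled wt, and from 378 to 1098 CPM labelled cko. In Ly6c2-low C1q-low cells it went from 334 to 1517 CPM and from 355 to 927 CPM. Ly6c2-positive C1q cells showed no climb over the first step, 706 then 650.1 CPM labelled wt and 582.3 then 582.0 CPM labelled cko, but reached 1398 and 1268 CPM in the highest division.

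**Figure D1:**
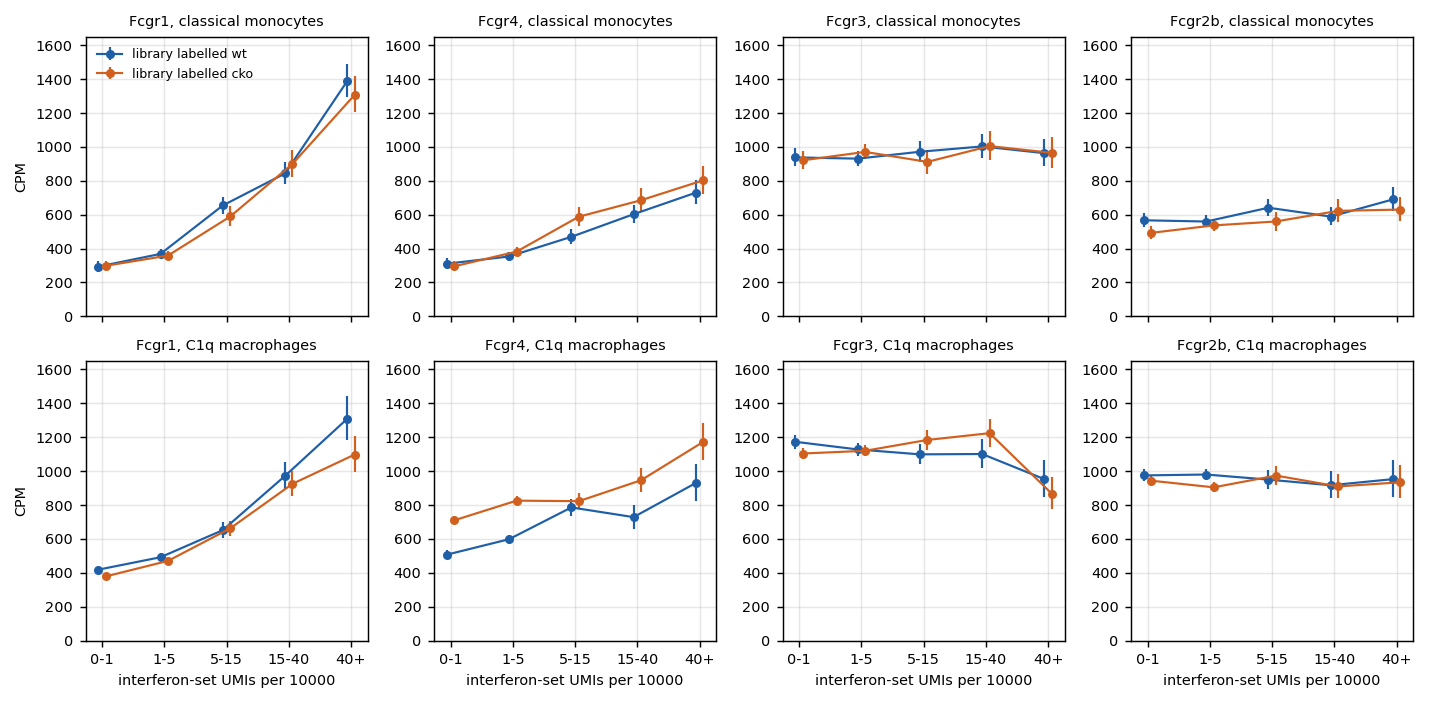
Levels of Fcgr1, Fcgr4, Fcgr3 and Fcgr2b (CPM, vertical axes, with exact 95% counting intervals) in cells divided by UMIs of the 8 interferon-induced genes per 10000 UMIs (horizontal axes), in classical monocytes and in C1q macrophages of both libraries. Fcgr1 climbs from 294 to 1389 CPM across classical monocytes labelled wt, Fcgr4 climbs less, and Fcgr3 lies between 912 and 1005 CPM in the classical monocytes of both libraries.

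Fcgr4 had a different peak. Its highest level was in the Cd300e/Clec4b1/Pparg macrophages, 901 CPM labelled wt and 1163 labelled cko, followed by nonclassical monocytes with 698 and 795 CPM. The intervals of nonclassical monocytes, Ly6c2-positive C1q cells (680.5 and 759 CPM) and interferon-high classical monocytes (657 and 739.8 CPM) overlapped, so their order was not resolved. Against interferon-low classical monocytes (369 and 390.4 CPM), Fcgr4 was higher in nonclassical monocytes by 0.92 and 1.02 on the log2 scale and in interferon-high ones by 0.83 and 0.92. Vcam1 macrophages held 591 and 672 CPM, other C1q macrophages 538 and 649.6 CPM, Ly6c2-low C1q-low cells 462 and 532 CPM, and granulocytic cells 317 and 400.2 CPM. Over the interferon divisions of classical monocytes it went from 311 to 730.0 CPM labelled wt and from 296 to 803 CPM labelled cko, a smaller span than that of Fcgr1. In C1q macrophages it went from 507 to 929.9 CPM and from 710 to 1173 CPM, with a step down from 786 to 728 CPM labelled wt. In Ly6c2-positive C1q cells labelled cko it was lower over the first divisions, 804, 687 and 621 CPM, before 869 and 949 CPM.

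Fcgr3, the low-affinity activating receptor, was the most even of the 3. Interferon-low and interferon-high classical monocytes had 943 and 986 CPM labelled wt and 943 and 987 CPM labelled cko, a log2 difference of 0.06 in each library. Nonclassical monocytes were lower, at 689.6 and 689.5 CPM (log2 -0.45 against interferon-low classical monocytes in both). The highest values were in Vcam1 macrophages, 1229 and 1259 CPM, and Ly6c2-positive C1q cells, 1141 and 1271 CPM. Other C1q macrophages had 1121 and 1173 CPM, Cd300e macrophages 949.7 and 889.6 CPM, Ly6c2-low C1q-low cells 1078 and 1127 CPM, and granulocytic cells 866 and 1097 CPM. In granulocytic cells it made up 51.4% and 50.4% of all receptor UMIs, more than in any other myeloid gate.

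The inhibitory receptor Fcgr2b was highest in C1q macrophages outside the Cd300e gate. Other C1q macrophages held 1013 CPM labelled wt and 979 labelled cko, Vcam1 macrophages 983 and 1031 CPM, Ly6c2-positive C1q cells 877 and 893 CPM, and Cd300e macrophages 799 and 749.7 CPM. Ly6c2-low C1q-low cells stood at 780.3 and 808 CPM. Classical monocytes had less, 582 and 526 CPM in the interferon-low and 632 and 626 CPM in the interferon-high gate, a log2 difference of 0.80 and 0.89 between other C1q macrophages and the interferon-low gate. Nonclassical monocytes (484 and 486 CPM) and granulocytic cells (298 and 359 CPM) were lowest among myeloid gates.

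**Figure D2:**
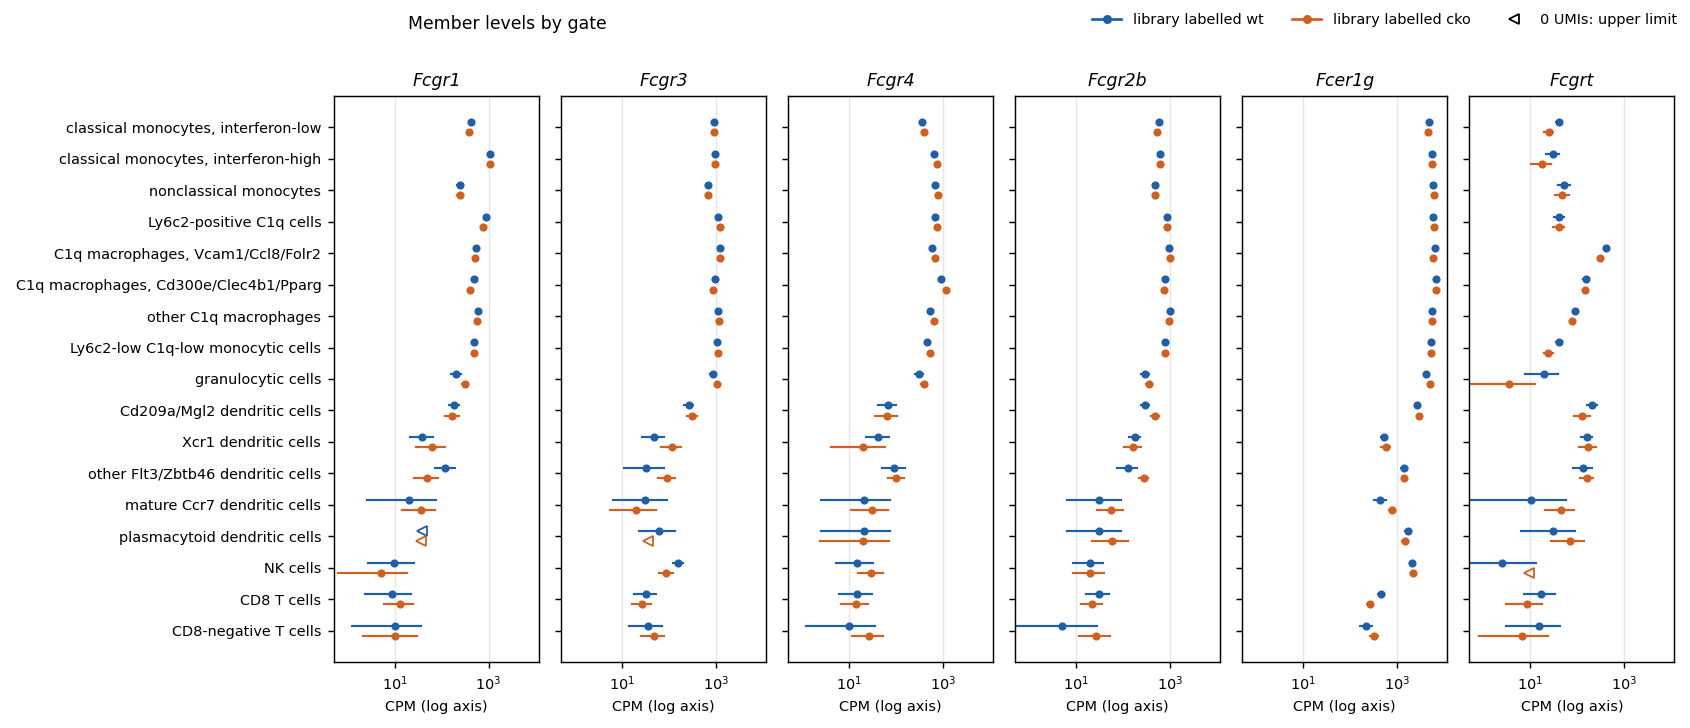
Level of each of the 6 genes (CPM, log axis) in the 17 gates, with 1 point per library and exact 95% counting intervals; open triangles mark gates with no UMI at the upper limit of their interval, and intervals that reach below the axis are cut. Fcgr1 peaks in interferon-high classical monocytes (1075 and 1088 CPM), Fcgr4 in Cd300e macrophages (901 and 1163 CPM), Fcgr2b in C1q macrophages, and Fcgrt in Vcam1 macrophages (411 and 311 CPM).

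The sum of Fcgr1, Fcgr3 and Fcgr4 exceeded Fcgr2b in 9 of 9 myeloid gates of both libraries. Over monocytes and macrophages together, 2.70 activating UMIs were counted per inhibitory UMI labelled wt and 2.82 labelled cko. The ratio was highest in granulocytic cells, 4.65 (3.77 to 5.79) and 5.07 (4.35 to 5.92), and in interferon-high classical monocytes, 4.30 (3.99 to 4.64) and 4.49 (4.12 to 4.91). It was lowest in other C1q macrophages, 2.22 (2.14 to 2.30) and 2.44 (2.36 to 2.53), and in Vcam1 macrophages, 2.40 and 2.39. Interferon-low classical monocytes (2.97 and 3.26), nonclassical monocytes (3.37 and 3.56), Ly6c2-positive C1q cells (3.08 and 3.15), Cd300e macrophages (2.93 and 3.27) and Ly6c2-low C1q-low cells (2.60 and 2.65) lay between. With Fcgr3 alone set against Fcgr2b, a pair of the same affinity class, the activating side still exceeded the inhibitory one in 9 of 9 gates, but the log2 ratio over monocytes and macrophages was 0.39 and 0.42 in place of 1.43 and 1.5.

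The gates reached these ratios with different receptors. In interferon-high classical monocytes labelled wt, Fcgr1 gave 32.1% of receptor UMIs, Fcgr3 29.4%, Fcgr4 19.6% and Fcgr2b 18.9%. In nonclassical monocytes labelled wt the shares were 11.5% for Fcgr1, 32.6% for Fcgr3, 33.0% for Fcgr4 and 22.9% for Fcgr2b. Other C1q macrophages had the largest inhibitory share of the myeloid gates labelled wt, 31.1% Fcgr2b.

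**Figure D3:**
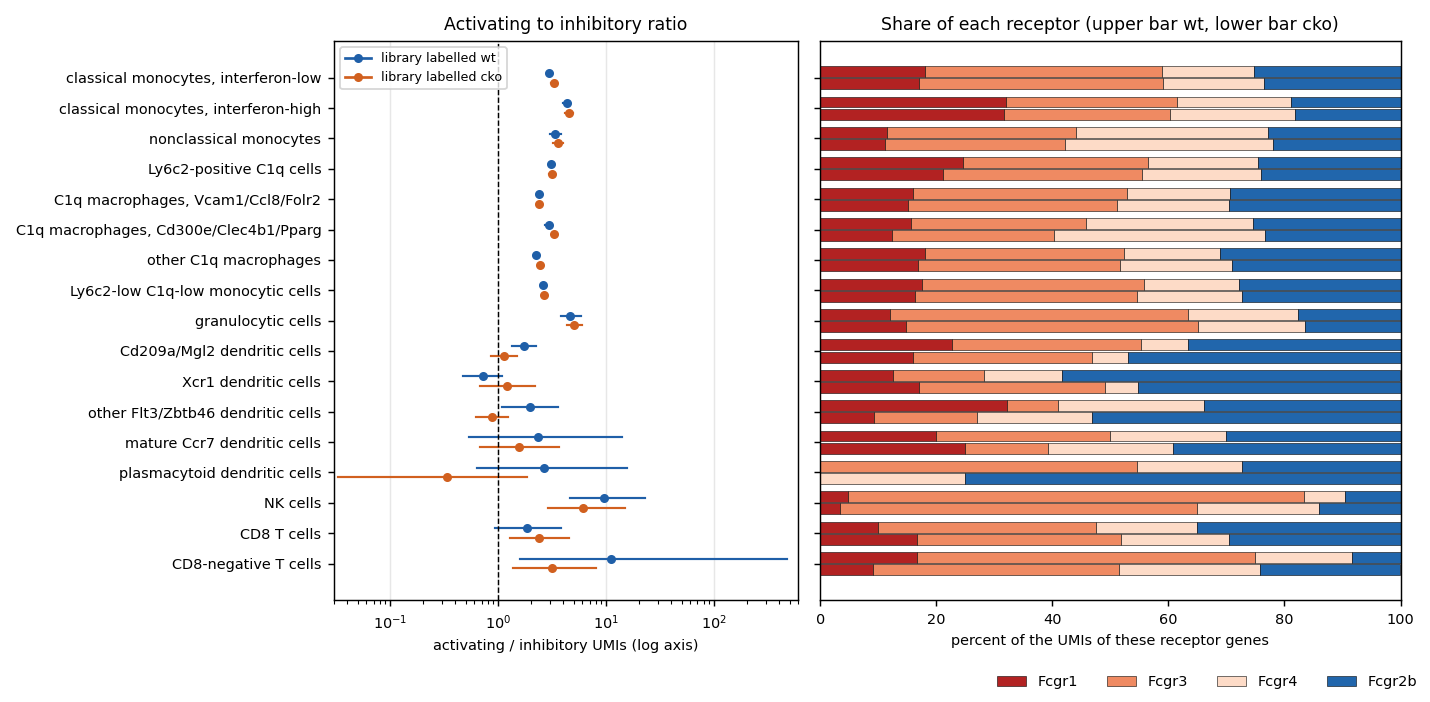
Left, activating UMIs (Fcgr1, Fcgr3 and Fcgr4) per Fcgr2b UMI in each gate on a log axis, with exact 95% counting intervals and a dashed line at 1; right, the percent of receptor UMIs from each receptor, with the library labelled wt as the upper and that labelled cko as the lower bar of a gate. All 9 myeloid gates lie above 1, from 2.22 in other C1q macrophages to 4.65 in granulocytic cells labelled wt, while the Cd209a/Mgl2, Xcr1 and other Flt3/Zbtb46 dendritic cell gates lie between 0.717 and 1.95, and the mature Ccr7 and plasmacytoid gates rest on few UMIs near background (8 to 3 and 2 to 6 in plasmacytoid cells).

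Both kinds of receptor RNA were found together in most monocytes and macrophages at a depth of 3000 UMIs per cell. With every cell thinned to 3000 UMIs, an activating receptor and Fcgr2b were found together in 72.9% of interferon-low classical monocytes (interval 68.6% to 76.8%), 90.7% of Vcam1 macrophages and 87.8% of other C1q macrophages labelled wt. The corresponding shares labelled cko were 67.4%, 91.9% and 89.6%. These shares depended on the depth, and for interferon-low classical monocytes they were 31.7% and 33.2% at 1000 UMIs per cell and 92.3% and 92.8% without thinning. Cells with Fcgr2b alone were rare, 6 of 479 and 8 of 470 interferon-low classical monocytes. In granulocytic cells 23 of 46 (labelled wt) and 55 of 94 had an activating receptor alone and 20 and 37 had both. CD8 T cells, taken as the low end of the scale, had both in 0 of 41 cells and 1 of 71 cells, with median depths before thinning of 7375 and 8165 UMIs against 8093 and 7975 UMIs in interferon-low classical monocytes.

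**Figure D4:**
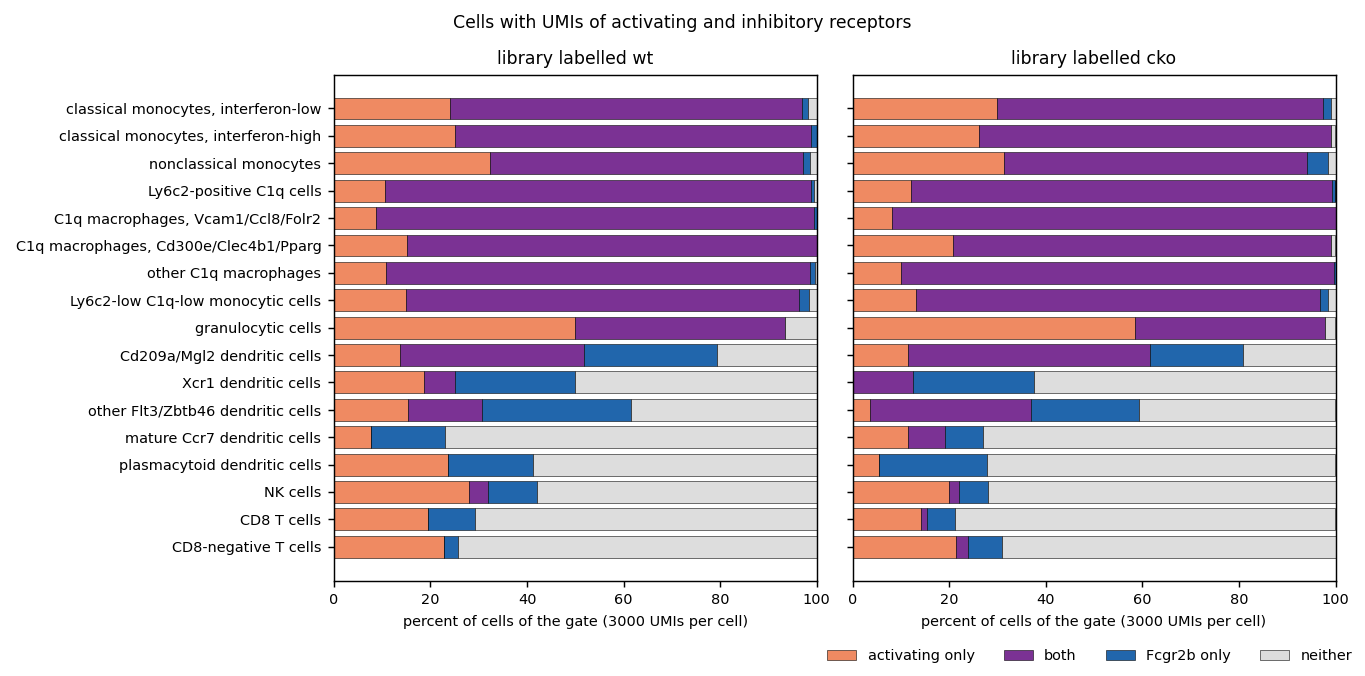
Percent of cells in each gate, after thinning to 3000 UMIs per cell, with UMIs of at least 1 activating receptor only, of activating receptors and Fcgr2b, of Fcgr2b only, or of neither, for both libraries. Both kinds are found together in most monocytes and macrophages (72.9% of interferon-low classical monocytes labelled wt) and in few NK cells (4.0% and 2.0%).

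Fcer1g, which every activating receptor needs at the surface, was the most abundant of the 6 genes and was found at 3000 UMIs in 479 of 479 interferon-low classical monocytes labelled wt. Its levels in interferon-low and interferon-high classical monocytes were 4972 and 5582 CPM labelled wt and 4703 and 5612 CPM labelled cko. Nonclassical monocytes had 5871 and 6208 CPM, Ly6c2-positive C1q cells 5945 and 6195 CPM, Vcam1 macrophages 6530.0 and 5923 CPM, Cd300e macrophages 6787 and 6733 CPM and other C1q macrophages 5561 and 5598 CPM. Ly6c2-low C1q-low cells (5385 and 5320.0 CPM) and granulocytic cells (4200.0 and 5211 CPM) completed the myeloid gates, in which the highest level was less than double the lowest. The gamma chain also pairs with other receptors, and in NK cells 11.3 and 17.7 Fcer1g UMIs were counted per activating receptor UMI, against 2.88 in interferon-low classical monocytes labelled wt. With the expected free RNA taken off, a step added after seeing the data, the NK cell ratios were 15.4 and 34.5. They rest on 76 activating UMIs labelled wt and 49 labelled cko, where free RNA would have given 24.56 and 25.75. No interval was computed for them, so their difference between the libraries is not resolved.

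Fcgrt, which handles IgG inside the cell and does not signal, had a narrower pattern than the surface receptors. Vcam1 macrophages held 411 CPM labelled wt and 311 labelled cko, 4.51 and 3.98 times the levels of other C1q macrophages (91.1 and 78.1 CPM). Cd300e macrophages held 157 and 149 CPM, and Cd209a/Mgl2 dendritic cells 213 and 129 CPM, with Xcr1 and other Flt3/Zbtb46 dendritic cells between 133 and 170.1 CPM. Classical monocytes had 40.8 and 24.8 CPM in the interferon-low gate, and 30.8 and 17.9 CPM in the interferon-high gate. Nonclassical monocytes had 53.0 and 48.3 CPM, Ly6c2-positive C1q cells 41.5 and 40.4 CPM, and Ly6c2-low C1q-low cells 41.3 and 24.5 CPM. Against interferon-low classical monocytes, the log2 difference was 0.38 (-0.13 to 0.86) and 0.96 (0.39 to 1.51) for nonclassical monocytes, and 0.02 (-0.39 to 0.42) and 0.70 (0.21 to 1.19) for Ly6c2-positive C1q cells. In C1q macrophages Fcgrt went the other way, from 242 CPM in the lowest to 123 CPM in the highest division labelled wt and from 192 to 77.8 CPM labelled cko.

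Dendritic cells held less of each activating receptor than monocytes, and in the conventional subsets the balance lay nearer to equality. The gates were small, between 8 and 29 cells per library. Cd209a/Mgl2 dendritic cells, a type 2 conventional subset, had 186 and 165 CPM of Fcgr1, 265 and 317 CPM of Fcgr3, 67.0 and 64.3 CPM of Fcgr4, and 298 and 482 CPM of Fcgr2b. Their ratio of activating to inhibitory UMIs was 1.74 (1.34 to 2.25) labelled wt and 1.13 (0.864 to 1.49) labelled cko. With Fcgr3 alone set against Fcgr2b the ratio was 0.888 and 0.657, below 1 in both libraries. Fcer1g stood at 2665 and 3014 CPM in them, and both Fcgr2b and an activating receptor were found in 11 of 29 and 13 of 26 cells at 3000 UMIs.

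Xcr1 dendritic cells, the cross-presenting subset, carried more Fcgr2b, 179 and 163 CPM, than any one activating receptor, and Fcgrt at 164 and 170.1 CPM. Fcgr1 was at 38.9 and 61.2 CPM, Fcgr3 at 47.8 and 116 CPM and Fcgr4 at 41.9 and 20.4 CPM. Single cells decided these values, since 1 of 8 cells labelled cko held 11 of 17 Fcgr3 UMIs and 1 of 16 labelled wt held 9 of 13 Fcgr1 UMIs. The gate labelled cko also held the monocyte gene Ly6c2 at 238 CPM, whose part in these values was not tested. Their activating to inhibitory ratio was 0.717 (0.473 to 1.08) and 1.21 (0.679 to 2.17), and on the log2 scale -0.48 and 0.27, or -1.13 and -0.995 once the cell richest in each gene was left out. Fcer1g was far lower than in Cd209a/Mgl2 dendritic cells, 535 and 578 CPM, a log2 difference of -2.32 and -2.38.

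Other Flt3/Zbtb46 dendritic cells had a ratio of 1.95 (1.09 to 3.58) in 13 cells labelled wt and 0.880 (0.622 to 1.24) in 27 cells labelled cko, with Fcgr2b at 127 and 276 CPM. With Fcgr3 alone set against Fcgr2b their ratio was 0.263 and 0.333. In mature Ccr7 dendritic cells, the migratory state, Fcgr2b was at 30.8 and 56.2 CPM, Fcgr3 at 30.8 and 20.4 CPM and Fcer1g at 441 and 786 CPM. Free RNA alone would have given 2.85 and 6.08 Fcgr3 UMIs in that gate, where 3 and 4 were counted. Plasmacytoid dendritic cells had no UMI of Fcgr1 in either library and Fcgr2b at 31.1 and 59.5 CPM, from 3 and 6 UMIs. They carried Fcer1g at 1728 and 1497 CPM, so the gamma chain was present where activating receptor RNA was near its background.

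NK cells held Fcgr3 and Fcer1g and none of the other members above background. Fcgr3 was at 161 CPM (125 to 205) labelled wt and 88.1 CPM (61.4 to 122) labelled cko, from 66 and 35 UMIs where free RNA would have given 11.96 and 12.33. A single cell labelled wt held 18 of the 66. At 3000 UMIs Fcgr3 was found in 28.0% (16.2% to 42.5%) and 18.0% (8.58% to 31.4%) of 50 NK cells each, against 9.76% and 9.86% of CD8 T cells, with median depths of 6401 and 5988 UMIs in NK cells. Without thinning the shares were 27 of 50 and 19 of 50 NK cells, against 13 of 41 and 17 of 71 CD8 T cells. Fcgr2b gave 8 and 8 UMIs where free RNA would have given 9.11 and 9.14, and Fcgr1 4 and 2 where it would have given 6.35 and 5.82. Fcgr4 gave 6 and 12 UMIs against 6.25 and 7.60 from free RNA, within the counting interval. Against CD8 T cells, Fcgr3 was higher by 2.32 (1.49 to 3.23) and 1.73 (0.88 to 2.61) on the log2 scale. Against CD8-negative T cells the differences were 2.20 (1.07 to 3.57) and 0.89, and the interval of the latter (-0.04 to 1.90) included 0. Fcer1g stood at 2100.0 and 2182 CPM and was found in 98.0% and 96.0% of NK cells. The cytotoxic genes Prf1 (205 and 264 CPM) and Gzma (4949 and 3075 CPM), which the gate did not use, were present in both libraries.

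T cells served as the low end of the scale. CD8 T cells had Fcgr3 at 32.4 and 26.6 CPM, Fcgr2b at 30.2 and 22.4 CPM and Fcgr1 at 8.63 and 12.6 CPM. Their Fcer1g, at 462 and 266 CPM, came from 214 and 190 UMIs where free RNA would have given 74.5 and 118, and 1 cell labelled cko held 45 of the 190. CD8-negative T cells held Fcgr3 at 35.2 and 47.4 CPM and Fcer1g at 221 and 325 CPM.

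The libraries were then compared gate by gate, a gene being counted as different from a log2 ratio of 0.32 in either direction, with at least 100 UMIs over both libraries. Fcgr4 was higher in the library labelled cko in 9 of 9 myeloid gates (median log2 ratio 0.19, from 0.08 to 0.37), and its interval lay above 0 in 8 of them. With doubled gate thresholds it was higher in 8 of 9. Fcgrt reached 100 UMIs in 6 of these gates and was lower in 6 of 6 (median -0.31, from -0.75 to -0.04), with the interval below 0 in 4. The other members had medians near 0, namely -0.02 for Fcgr1, 0.04 for Fcgr3, and 0.01 each for Fcgr2b and Fcer1g. Intervals lay above 0 in 1 gate and below it in 3 for Fcgr1, above in 4 for Fcgr3, below in 1 for Fcgr2b, and above in 3 and below in 2 for Fcer1g. The median of all genes in these gates was 0.02 to 0.04 in monocytes and macrophages and -0.08 in granulocytic cells. How many of all genes had 1 direction in every gate, or an interval clear of 0, was not counted. The gates came from the same libraries, so agreement between gates is not repeated support. The direction of each difference follows the titles.

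Past this limit, Fcgr4 alone of the 6 differed in Cd300e macrophages (log2 0.37, interval 0.27 to 0.46), where 21.6% of all genes compared did. Fcgrt alone differed in interferon-low classical monocytes (-0.72, -1.10 to -0.35), where 14.2% of genes did, in Vcam1 macrophages (-0.40, -0.53 to -0.28), where 17.2% did, and in Ly6c2-low C1q-low cells (-0.75, -1.14 to -0.37), where 12.3% did. No member did so in interferon-high classical monocytes (0 of 5 compared, with 16.4% of all genes), nonclassical monocytes (0 of 5, 17.1%), Ly6c2-positive C1q cells (0 of 6, 16.0%) or other C1q macrophages (0 of 6, 13.7%). In granulocytic cells Fcgr1 (0.66), Fcgr3 (0.34) and Fcgr4 (0.33) passed the limit among 5 compared, but 48.7% of all genes did so there, with 46 and 94 cells at unequal depth. In that gate the direction of Fcgr4 turned with doubled gate thresholds and that of Fcgr3 as a mean over cells, as given in the last section. With 6 members, 1 past the limit comes near the share of all genes in these gates.

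Pooled over the 3 gates of C1q macrophages, Fcgr4 stood at 615 CPM labelled wt and 798 labelled cko (log2 0.38, interval 0.33 to 0.43), and Fcgrt at 212 and 164 CPM (-0.37, -0.47 to -0.28), 2 of 6 members against 14.4% of all genes. The Cd300e gate, highest in Fcgr4, held 3.76% of cells labelled wt and 8.39% labelled cko. With both libraries given the same mix of the 3 gates, the log2 ratios were 0.28 for Fcgr4 and -0.30 for Fcgrt, and neither then passed the limit of 0.32. Fcgr1 (553 and 508 CPM, -0.12), Fcgr2b (968 and 930.0 CPM, -0.06), Fcgr3 (-0.01) and Fcer1g (-0.02) differed by less than the limit.

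The balance of activating to inhibitory UMIs was higher in the library labelled cko by 0.13 on the log2 scale in interferon-low classical monocytes, 0.16 in Cd300e macrophages and 0.14 in other C1q macrophages, with intervals clear of 0. In the remaining myeloid gates the interval included 0. The balance was lower in Cd209a/Mgl2 dendritic cells (-0.61, interval -1.16 to -0.07) and in other Flt3/Zbtb46 dendritic cells (-1.15, -2.16 to -0.15), both from fewer than 30 cells per library. In Xcr1 dendritic cells the difference was 0.75 (-0.29 to 1.80), in the other direction with an interval that included 0. In NK cells Fcgr3 had a log2 ratio of -0.87 (-1.51 to -0.26), past the limit as were 24% of all genes compared there. Without the 1 cell labelled wt that held 18 of the 66 UMIs, a choice made after seeing the data, it was -0.52 (-1.20 to 0.13), an interval that includes 0. Other calls outside the myeloid gates were Fcgr2b in Cd209a/Mgl2 dendritic cells (0.69, interval 0.28 to 1.10), with 34.3% of all genes past the limit, and Fcer1g in mature Ccr7 dendritic cells (0.83, 0.34 to 1.36), with 32.9%. Fcer1g was also past it in CD8 T cells (-0.79, -1.08 to -0.50), with 30.2%, and in CD8-negative T cells (0.56, 0.03 to 1.10), with 24.4%. No replicate stands behind any of these differences.

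**Figure D5:**
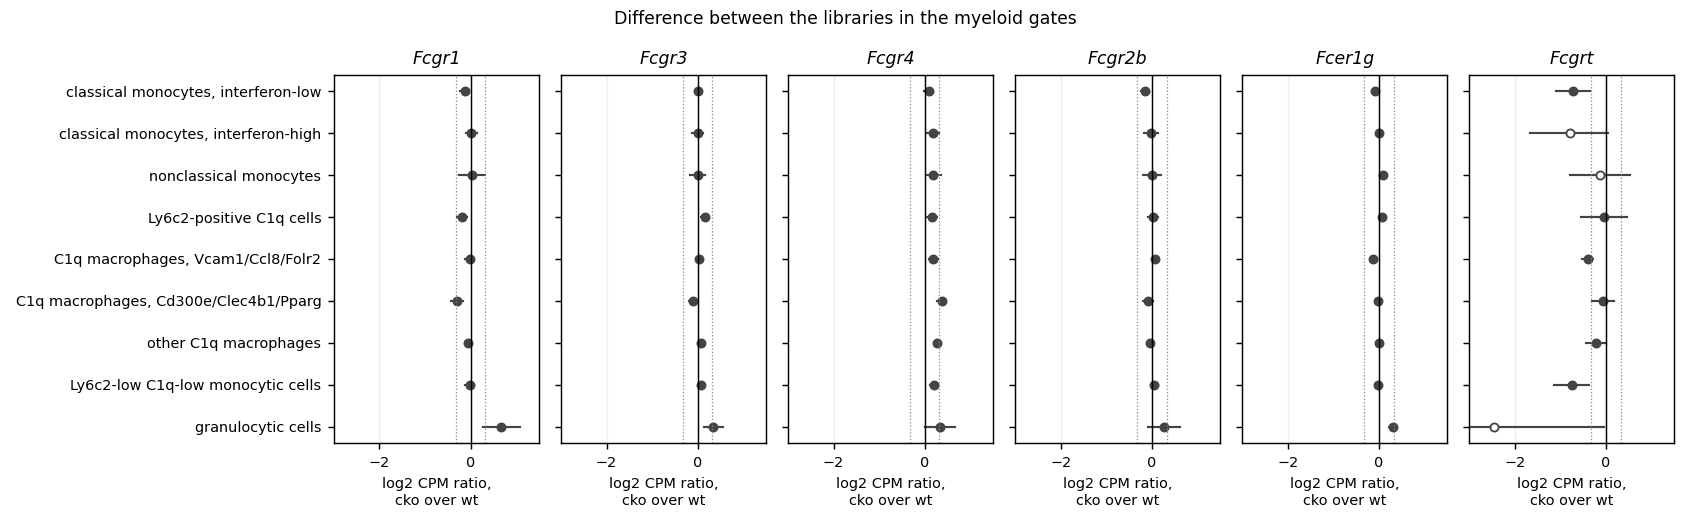
Log2 ratio of levels, library labelled cko over library labelled wt, for the 6 genes in the 9 myeloid gates, with exact 95% counting intervals, dotted lines at 0.32 on either side of 0, and open points where both libraries together held under 100 UMIs; intervals below -3 are cut. Points of Fcgr4 lie to the right of 0 in 9 of 9 gates (0.08 to 0.37) and those of Fcgrt to the left in the 6 gates with filled points.

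Genes of the receptor pathway were examined as 4 lists in pooled C1q macrophages, where the median log2 ratio of all genes was 0.03 and 14.4% of them passed the limit. Of 21 genes of activating signaling, 2 were higher past the limit labelled cko and 0 lower (median 0.12). The highest were Fyn (0.51), a Src family kinase, Plcg2 (0.36), the phospholipase downstream of Syk, and Pik3r5 (0.28), and the lowest were Prkcd (-0.19), Pik3cg (-0.16) and Was (-0.09), a regulator of actin at the phagocytic cup. Of 10 genes of inhibitory signaling, 2 were higher and 0 lower (median 0.18), with Cblb (0.91), a ubiquitin ligase, Inpp5b (0.38) and Dok3 (0.32) highest. Lowest were Dok1 (-0.02), Inpp5d (0.03), which encodes SHIP-1, and Ptpn11 (0.05).

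Of 14 other Fc receptors and their partners only 4 had enough UMIs, and 3 of these were higher, Fcrl5 (1.06), Trim21 (0.73), a cytosolic antibody receptor, and Fcrl1 (0.53), whereas B2m, the light chain of FcRn, had -0.12. Among receptors that pair with the gamma chain or resemble those that do, 17 of 21 were in the table and 13 were compared, with 1 higher, Cd300lf (0.45), and 1 lower, Clec4n (-0.41), the gene of dectin-2. Clec4b1 (0.28), itself a gate marker, and Pilrb1 (0.22) followed at the upper end and Clec4d (-0.21) and Clec4a2 (-0.12) at the lower. With the same mix of the 3 gates in both libraries, a comparison added after seeing the data in which 13.4% of all genes passed the limit, the lists had 1 of 21, 2 of 10, 3 of 4 and 1 of 13 genes higher, and 1 gene lower. Values were then smaller for Fyn (0.35), Plcg2 (0.31, under the limit), Cblb (0.77), Inpp5b (0.33), Fcrl1 (0.36) and Clec4n (-0.33), and Clec4b1 was at -0.01. Fcrl5 was then at 0.35, with 37 of its 42 UMIs labelled wt and 114 of 115 labelled cko in the Cd300e gate, and 4 and 0 in other C1q macrophages. In interferon-low classical monocytes 14.2% of all genes passed the limit. There 1 of 21 activating genes was higher, 1 of 9 inhibitory genes lower and 0 of 1 other Fc receptor different. Of the 12 receptors compared that pair with the gamma chain or resemble those that do, 1 was higher and 1 lower. The activating list had 0 of 13 higher and 1 lower in nonclassical monocytes (17.1% of all genes), and 0 of 21 higher and 2 lower in Ly6c2-low C1q-low cells (12.3%). The inhibitory list had 1 of 5 higher and 0 lower in nonclassical monocytes, and 0 of 9 different in Ly6c2-low C1q-low cells. The list of receptors that pair with the gamma chain or resemble them had 2 of 12 higher and 2 lower, and 2 of 13 higher and 0 lower.

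The genes whose levels were most like those of each member were ranked by Pearson r of log2(CPM + 10) over 13 gates in each library, 26 points that share libraries, depth and the broad split between myeloid and lymphoid cells, among 4943 genes. Nearest to Fcgr1 were Ms4a6d (0.98), AI607873, Ctsc, Capza2 and Aif1. Fcgr3 and Fcgr4 shared the lipid droplet gene Plin2 in first place (0.97 and 0.98). Aldh3b1, Tcn2, Clec4a2 and Creg1 followed for Fcgr3, and Apobec1, Gm5150, Slc11a1 and Pla2g4a for Fcgr4. Fcgr2b was closest to Cd68 (0.99), with Lrrc25, Unc93b1 and Clec4a2 also near it. Fcer1g was closest to Rnf130 (0.97) and then to Tyrobp, the other ITAM adaptor of myeloid and NK cells, Syk, Tgm2 and Creg1, though by Spearman's rho Tyrobp (0.48) and Syk (0.57) were less alike. Ranked by rho, 0 of the 5 nearest genes stayed the same for Fcgr3, Fcgr4, Fcgr2b and Fcer1g each, 1 for Fcgr1 and 3 for Fcgrt. Fcgrt had the weaker likenesses, to Clec4b1 (0.90), a gate marker, Pltp, Oat, Pepd and Hsd17b4. Among the members, Fcgr1 and Fcgr2b were most alike by Pearson r (0.96), Fcgr4 and Fcer1g by Spearman's rho (0.96), and Fcgrt was least like the rest by Pearson r (0.48 to 0.66).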

How the data were processed

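CD45+ cells of LLC tumors were profiled as 2 droplet libraries (10x 3′ chemistry). The authors deposited raw UMI counts per gene and cell as whole numbers, and the submitters' processing notes name Cell Ranger, Seurat and mm10 without versions. Cells under 200 genes or over 10% mitochondrial UMIs (4 and 14) were removed. Cells were gated by UMIs of marker sets per 10000 UMIs of the cell, with at least 2 UMIs, and thresholds were set after the marker distributions were seen. No doublet caller was run, and cells with markers of more than 1 lineage (38 and 51) were left out. Cells with markers of both T and NK cells (63 labelled wt and 57 labelled cko) were also left out, so they are not in the NK gate. UMIs were summed per gate and library. Poisson, Clopper-Pearson and conditional binomial 95% intervals were computed, and shares of cells after thinning to 3000 UMIs. The self-test on simulated data recovered known values. The named genes were the members, the 5 genes most like each (log2(CPM + 10), gates of at least 20 cells per library, genes reaching 50 CPM), and the 3 highest and 3 lowest of each pathway list in pooled C1q macrophages among genes with at least 100 UMIs. Members and lists were chosen with earlier results of these data known. The RNA of miR-21 itself was not analysed here. One gene of the likeness ranking is not reported here. Python 3.11.15, numpy 2.4.6, scipy 1.17.1, pandas 2.3.3, matplotlib 3.10.9, edgeR 4.0.16 (TMM) and DESeq2 1.42.0 (median of ratios) under R 4.3.3 were used, the last packages for scaling factors alone.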

Additional observations from a re-analysis of the deposited data

How the results depend on the processing

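No paired analysis was possible because each group was 1 library, and for the same reason no library could be left out. In 9 of 9 myeloid gates the activating receptors exceeded Fcgr2b under every alternative tried. The log2 ratio over monocytes and macrophages was 1.43 labelled wt and 1.5 labelled cko, and it was 0.39 and 0.42 with Fcgr3 as the only activating receptor, 1.00 and 1.12 without Fcgr1, and 1.49 labelled wt as a mean over cells. Of 5 dendritic cell gates, 4 labelled wt and 3 labelled cko had more activating than inhibitory UMIs. With Fcgr3 alone the numbers were 1 and 0, the log2 ratio turning to -0.17 in Cd209a/Mgl2 and -1.93 in other Flt3/Zbtb46 dendritic cells labelled wt. Labelled cko they were 0 without Fcgr1 and 1 with free RNA subtracted.

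Fcgr4 was higher labelled cko in 9 of 9 myeloid gates, and in 8 with doubled gate thresholds, where granulocytic cells turned to -0.16. Fcgrt was lower in 6 of 6 gates with at least 100 UMIs under every alternative, and, gates with fewer UMIs included, in 9 of 9, or 8 with doubled thresholds. Fcgr3 in granulocytic cells turned to -0.012 as a mean over cells. In pooled C1q macrophages Fcgr1 went from -0.12 to -0.18 as a mean over cells, and Fcer1g from -0.02 to 0.0089 as such a mean, -0.054 with TMM and -0.055 with median-of-ratios scaling. Pairs of member and gate higher labelled cko past a log2 ratio of 0.32 numbered 4, against 2 without the deepest 2% of cells, 1 as a mean over cells, 5 without the cell richest in each gene, and 6 under either other scaling. The pathway lists had 8 genes higher in pooled C1q macrophages and 3 with a minimum of 500 UMIs, and 1 lower and 4 with a minimum of 1 UMI. Of the 30 places among the 5 genes most like each member, 4 went to a gene also among the 5 by Spearman's rho and 17 to one also there at a pseudocount of 1. CPM levels moved beyond their counting interval in 68 of 204 cases with doubled thresholds and in 58 of 204 with free RNA subtracted, and the log2 ratio of activating to inhibitory UMIs in 14 of 54 with doubled thresholds. Shares of cells with a member UMI moved in 148 of 204 cases at 1000 UMIs per cell and in 129 of 204 without thinning. The causes were not tested. Gates under 30 cells and receptor counts under 20 UMIs limit the dendritic and NK cell values.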
